A study of Mus musculus with 50 samples.

Results

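SJL/J is an inbred mouse strain of Swiss origin that is widely used in work on autoimmune demyelination and on inherited muscle disease. Its dorsal root ganglia were profiled in 2 of the 50 Affymetrix arrays of a survey of 25 inbred strains, 1 array from a male pool and 1 from a female pool. Both arrays carry the strain label SJL/J, and they were set against the 44 arrays of 22 other strains, again 1 male and 1 female pool per strain. The arrays labelled SM/J and PL/J were kept out of the comparison because 1 of each pair did not match its labelled gender, as described below. All mice were labelled wild type and naive, were 2 months old, and were dissected in the morning, and each array carried the RNA of 3 pooled mice, so that no value belongs to a single animal. The other strains, spelled as the labels give them, were 129S1/Sv1mJ, A/J, AKR/J, BALB/CByJ, BTBT T+tf/J, BUB/BnJ, C3H/HeJ, c57BL/6J, C57BR/cdJ, C58/J, CBA/J, DBA/2J, FVB/NJ, KK/HIJ, MRL/MpJ, NOD/LtJ, NON/LtJ, NZO/HILtJ, NZW/LacJ, P/J, RIIIS/J and SWR/J.

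The dorsal root ganglion holds the cell bodies of the neurons that carry touch, heat, pain and itch from the body to the spinal cord. Its small neurons are usually split into peptidergic nociceptors, which release neuropeptides and depend on nerve growth factor and artemin, and non-peptidergic nociceptors, among them itch neurons that carry receptors of the Mrgpr family. Around the neurons lie satellite glia, myelinating Schwann cells, vessels, fibroblasts of the capsule and resident macrophages, all of which contribute RNA to a whole ganglion.

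All values below are log2 of the deposited intensity + 1, and a shift is the SJL/J level minus the mean of the 22 other strain means, taken within each gender for a single array. A gene was called when the limma test gave an adjusted p under 0.05 with a shift of at least 1, and when the male and the female shift had the same sign and each reached 0.5. The male and the female pool were the replicates of a strain, so the p-values measure only the spread between pools. Whether the pools of a strain differ by the animals, by handling or by an effect of gender particular to that strain cannot be told apart.

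The SJL/J pools matched their labelled gender. Xist, a non-coding RNA made from the inactive X in females, was at 2.38 in the male and 10.09 in the female SJL/J pool, and the Y-linked gene Eif2s3y was at 7.30 and 3.19. The male PL/J array had both, with Xist at 8.97 and Eif2s3y at 6.52, and so had the female SM/J array, with 9.43 and 6.82. With these 2 strains kept, 108 genes were called, beside 109 of 11209 (0.972%) without them. Xist was also raised in the male pools of BTBT T+tf/J (7.78) and SWR/J (6.73), both of which stayed in the comparison, and 108 genes were called without the first and 107 without the second. The SJL/J arrays did not stand apart in signal. Their median deposited intensities, here on the linear scale and not as log2, were 9.77 and 9.88, within 9.43 to 10.53 in the other strains. Of their probe sets, 18840 and 19004 lay above a log2 intensity of 4, within 18703 to 19327. The female SJL/J array resembled the arrays of 129S1/Sv1mJ and c57BL/6J in part. Over the 22130 tested probe sets, after the mean of each gender was removed, its correlation with the male SJL/J array was 0.50, with the female 129S1/Sv1mJ array 0.44 and with the female c57BL/6J array 0.25. With the male arrays of these strains the female SJL/J array had 0.30 and 0.22, and with other female arrays it went down to -0.30 (C58/J). The male SJL/J array had 0.07 and -0.05 with the male arrays of these strains, and 0.06 and 0.09 with their female arrays. These correlations run across probe sets, which share the array and its normalization, and describe the arrays only. Without 129S1/Sv1mJ and c57BL/6J in the comparison the counts of called genes given below were 112 in all, 40 higher and 72 lower. Genes of sensory neurons were strongly detected, as for P2rx3, the ATP-gated channel of nociceptors, with 11.68 in the male and 11.84 in the female SJL/J pool, against 10.83 to 11.77 in the other strains, and for Scn11a, a sodium channel of nociceptors, with 12.16 and 12.50 against 11.64 to 12.49.

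Of 11209 genes tested, 109 (0.972%) were called in SJL/J. Among these, 40 genes (0.357%) were higher, with a median shift of 1.19, and 69 genes (0.616%) were lower, with a median shift of -1.33. Counted over probe sets, with or without a gene symbol, 257 of 22130 (1.16%) were called. The male and the female shift had the same sign in 6704 genes (59.8%). A shift of 2 or more was reached by 3 of the higher and 8 of the lower genes. At any size, 382 genes (3.41%) had an adjusted p under 0.05 and the same sign in both arrays, 220 of them higher (1.96%) and 162 lower (1.45%), and such genes are said below to have passed the test. The lower side depended on the female array. Without the female pool 38 genes were called lower, and without the male pool 84, while the higher side counted 41 and 56. The test asks whether SJL/J differs from the average strain, and a gene whose level varies between many strains can be called without setting SJL/J apart. Fitted instead against the full spread between the other strains, 21 genes (0.187%) were called, 8 higher and 13 lower. Of the 42 called genes that were named by rule, 14 kept the call in that fit, and these were Mgst2, Prkcq, Gal, Slc14a1, Erich6, 1110038B12Rik, Mad2l2, H2-DMa, Luc7l2, Zic1, Smarcc1, Gmps, Tagln and Ece2. Of the same 42, 16 lost the call without the female SJL/J pool and 5 without the male pool. In 63 genes (0.562%) both SJL/J arrays lay above every other array of their gender, and in 41 genes (0.366%) below. Of the 109 called genes, 14 were among the 63 and 16 among the 41.

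**Figure D1:**
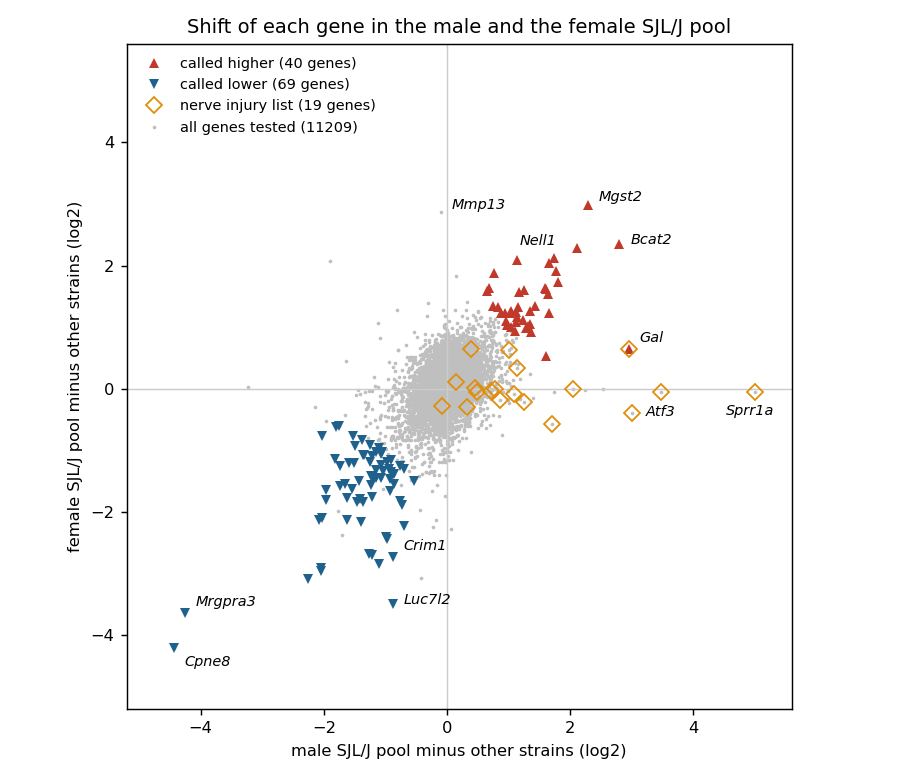
Shift of each tested gene in the male SJL/J pool (horizontal axis, log2) and in the female SJL/J pool (vertical axis, log2), with called genes as triangles, higher in red and lower in blue, and the nerve injury list as open diamonds. Mrgpra3 and Cpne8 lie far down in both pools, Mgst2 and Bcat2 far up, and Sprr1a and Atf3 lie on the zero line of the female pool while the male pool is far to the right.

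The largest sensory neuron difference was in Mrgpra3, which encodes the receptor for chloroquine on a class of itch neurons. It stood at 2.76 in the male and 3.76 in the female SJL/J pool, against 3.57 to 8.52 with a median of 7.47 in the other males and 3.79 to 8.90 with a median of 7.82 in the other females. The shift was -3.95 ± 0.16 (SE, adjusted p = 3.87e-16), -4.26 in the male and -3.65 in the female. The same low level was found in 3 other strains, with 3.68 and 3.79 in the male and female pools of P/J, 3.57 and 3.94 in NZW/LacJ, and 3.84 and 3.95 in NON/LtJ. The next lowest strain, c57BL/6J, had 7.34 and 7.15, so that the strains fell into a low and a high set with SJL/J in the low one. All 8 values of the low set were under 4, the level that a probe set had to exceed in 2 arrays to be tested, and their order within the set is not read. With the spread between strains as the error, the adjusted p was 0.0530. Of 11 itch neuron list members tested, Mrgpra3 was the only one to pass the test, and Il31ra, a subunit of the interleukin-31 receptor, was at 6.40 and 6.18 in SJL/J against a median of 6.29, while Nppb, the itch transmitter BNP, was at 7.21 and 7.09 against a median of 7.34. The median shift of the list was -0.05, beside 0.04 over all genes tested. Whether a sequence difference under the probes of Mrgpra3 takes part in its low signal was not tested.

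Nell1, which encodes a secreted protein of the thrombospondin-like family, was high where Mrgpra3 was low. Its SJL/J values were 7.35 and 7.23, against 3.90 to 7.23 (median 5.34) in the other males and 3.49 to 7.01 (median 5.01) in the other females. The shift was 2.20 ± 0.17 (adjusted p = 8.15e-10), and against the spread between strains the adjusted p was 0.103. The nearest strains were NZW/LacJ with 7.23 and 6.68 and P/J with 6.55 and 7.01, which are 2 of the 3 strains with low Mrgpra3, while NON/LtJ was not among the strains at SJL/J-like Nell1 levels. Mrgpra3 and Nell1 lie 3 tested genes apart in the RefSeq gene order.

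Gfra3, the receptor subunit for artemin that marks peptidergic nociceptors, was higher in SJL/J than in any other strain. It reached 8.44 and 8.25 in the male and female SJL/J pools, against 6.17 to 7.93 (median 6.89) in the other males and 6.06 to 7.80 (median 6.84) in the other females. Both pools exceeded all others of their gender by at least 0.45, and the shift was 1.39 ± 0.13 (adjusted p = 2.48e-08). Against the spread between strains the adjusted p was 0.0877. NOD/LtJ, with 7.93 and 7.80, was the next strain. Artemin signals through Gfra3 together with Ret, which had a shift of 0.40 (adjusted p = 0.0855) and did not pass. Of 7 tested peptidergic markers, Gfra3 and Gal passed. Gal is also in the nerve injury list, and its shift was 2.95 in the male but 0.64 in the female SJL/J pool. In both pools 3 of the 7 were higher (42.9%, beside 35.2% of all genes) and 1 was lower (14.3%, beside 24.6%).

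Il6st encodes gp130, the signalling subunit shared by the receptors of interleukin-6 and leukaemia inhibitory factor. It was at 11.85 and 11.76 in SJL/J, against a median of 10.74 and a range of 8.52 to 12.41 in the other strains (shift 1.13 ± 0.24, adjusted p = 0.00504). The SJL/J values lay inside that range, 4 other strains had SJL/J-like levels, and 3 further probe sets of the gene had shifts of 0.28 to 0.35. The call was lost when either SJL/J pool was left out, and also when 129S1/Sv1mJ and c57BL/6J were left out. Of the 13 neurotrophic factor receptors tested, Gfra3 and Il6st were called and 9 were higher in both pools, a share of 69.2%, beside 35.2% of all genes tested. The mean shift of this list was 0.28 in the male and 0.36 in the female SJL/J pool, above all other males, whose highest was 0.18, and above all other females, whose highest was 0.16. These means include Gfra3 and Il6st, each with a shift above 1, and the list medians were 0.15 in the male and 0.33 in the female. The means without these 2 genes were not worked out.

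Genes given from here to the end of the glial genes that passed the test with a shift under 1 were chosen after their values were seen. Among the channels of nociceptors, Trpa1, the receptor for mustard oil and other irritants, stood at 9.52 and 9.59 in SJL/J, against 7.33 to 9.36 (median 8.73) in the other strains. It was above every other array and had a shift of 0.88 ± 0.15 (adjusted p = 0.000474). Trpv2, a channel of medium and large sensory neurons in rodents, was at 8.69 and 8.61 in SJL/J against a median of 8.23 (shift 0.49 ± 0.11, adjusted p = 0.0107). Trpv1, the capsaicin receptor, had a shift of 0.47 that did not pass (adjusted p = 0.0791), and Piezo2, the channel of touch, had -0.58 (adjusted p = 0.244). Of 12 tested TRP, ASIC and Piezo genes, 2 passed, both higher (beside 1.96% of all genes), 0 passed lower, and the list median was 0.20.

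The series title names the nicotinic receptor subunit gene Chrna6 and the P2X2/3 receptor. Chrna6 was at 7.56 and 8.22 in SJL/J, against 6.49 to 9.54 in the other strains, with a shift of 0.21 ± 0.18 (adjusted p = 0.743). P2rx3 had a shift of 0.39 ± 0.09 (adjusted p = 0.0143), the same in both pools, and both were above all other pools of their gender by at least 0.04. This is under the size of 1 that a call needed, and 2 further probe sets of P2rx3 had shifts of -0.04 and 0.50. P2rx2 had a shift of 0.16 (adjusted p = 0.896), and Chrnb3, which partners Chrna6, was at or below 2.50 in both SJL/J pools and was not tested.

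Of 8 tested non-peptidergic markers, 5 were higher in both SJL/J pools (62.5%, beside 35.2% of all genes) and 2 were lower in both, one of them Mrgpra3. Lpar3, a lysophosphatidic acid receptor, was at 9.47 and 9.65 in SJL/J against a median of 8.94 (shift 0.61 ± 0.17, adjusted p = 0.0437). Of the 8, 2 passed higher (Lpar3 and P2rx3) and 1 lower (Mrgpra3). Tafa4, a secreted protein of C low-threshold mechanoreceptors, was at 8.60 and 8.78 against a median of 8.24 (shift 0.48 ± 0.11, adjusted p = 0.00921). It was the only one of 5 tested genes of these neurons to pass and the only one higher in both pools (20%, beside 35.2% of all genes). Of the 5, 1 was lower in both pools (20%, beside 24.6%). None of the 13 markers of large-diameter neurons passed, and their median shift was 0.08.

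Scn2b encodes a beta subunit that modulates voltage-gated sodium channels, and it was the single sodium channel gene of 10 tested to pass. Its SJL/J values were 7.40 and 6.81, against 7.50 to 9.78 in the other males and 7.35 to 9.56 in the other females, so that both pools lay under all others of their gender. The shift was -1.48 ± 0.14 (adjusted p = 7.57e-08). The strains were spread widely, RIIIS/J being nearest to SJL/J at 7.50 and 7.35, and against the spread between strains the adjusted p was 0.245. A second probe set of Scn2b had a shift of 0.04, so the 2 probe sets disagree. Kcnf1 encodes a silent potassium channel subunit. Its leading probe set was at 3.57 and 3.82 in SJL/J against a median of 6.08 (shift -2.06 ± 0.22, adjusted p = 4.39e-07), and the SJL/J values of this probe set were under 4. The other probe set of Kcnf1 averaged 3.93 in SJL/J and 3.99 in the other strains, too dim to show a fall.

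**Figure D2:**
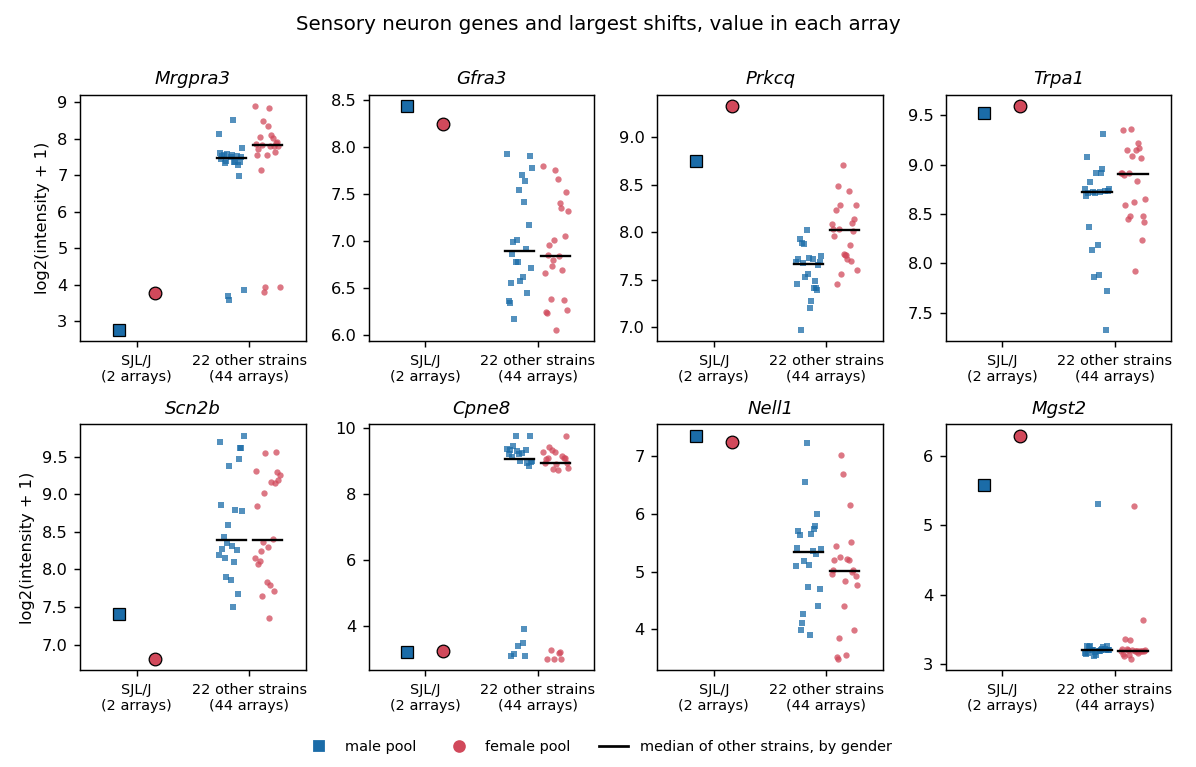
Log2(intensity + 1) of 8 genes in each array, with the male (square) and female (circle) SJL/J pools on the left of each panel and the 22 male and 22 female pools of other strains on the right; black bars are medians by gender. Gfra3, Prkcq, Trpa1, Nell1 and Mgst2 are above all other pools of their gender in SJL/J and Scn2b below, whereas Mrgpra3 and Cpne8 fall into a low and a high set of strains with SJL/J in the low set.

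Prkcq encodes protein kinase C theta, known for its part in T cell receptor signalling. In these ganglia it was at 8.75 and 9.33 in SJL/J, against 6.97 to 8.02 (median 7.66) in the other males and 7.45 to 8.71 (median 8.02) in the other females. No other pool of the same gender reached the SJL/J level, the nearest being 0.62 away, and the gene was named for this gap. The shift was 1.24 ± 0.12 (adjusted p = 1.19e-07), and it held against the spread between strains (adjusted p = 0.000372). No other strain had an SJL/J-like level, and the call was kept in all settings tried. Of 20 markers of T and B lymphocytes 13 were on the array and 4 were bright enough to be tested. None of these 4 passed, and their median shift was 0.08.

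Mgst2, a microsomal glutathione transferase that also makes leukotriene C4, had the largest rise of the called genes. It was at 5.59 and 6.29 in SJL/J, against 3.12 to 5.31 (median 3.20) in the other males and 3.07 to 5.28 (median 3.19) in the other females. The shift was 2.64 ± 0.10 (adjusted p = 3.87e-16), and 5.86e-07 against the spread between strains. A single other strain, SWR/J with 5.31 and 5.28, had a like level, and FVB/NJ, with 3.20 and 3.13, did not. In a list of other glutathione and detoxification genes 19 were tested, of which Gstp1 passed higher (shift 0.50, adjusted p = 0.00685) and Gstm2 passed lower (shift -0.83, adjusted p = 0.0115).

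Bcat2, the mitochondrial enzyme that starts the breakdown of branched-chain amino acids, was at 7.20 and 6.40 in SJL/J, against a range of 3.08 to 6.84 and a median of 3.78 in the other strains (shift 2.58 ± 0.12, adjusted p = 2.09e-14). The strains 129S1/Sv1mJ, C3H/HeJ, DBA/2J, NZW/LacJ and P/J had like levels, and against the spread between strains the adjusted p was 0.288. Slc14a1, the urea transporter of red cells and kidney vessels, was at 4.62 and 5.32 against medians of 3.29 and 3.05 (shift 1.61 ± 0.14, adjusted p = 8.35e-09), a call that was lost with log2(value + 16) at a shift of 0.86. It was one of the 4 called rises, of 10 with a further probe set, that another probe set followed, there with a shift of 2.84. FVB/NJ and NON/LtJ had SJL/J-like levels.

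Some genes stood apart from all other strains with little known of their part in the ganglion. Erich6, a gene named for its glutamate-rich product, was at 5.28 and 5.68 in SJL/J, against 2.87 to 4.23 in the other males and 3.39 to 4.78 in the other females (shift 1.76 ± 0.21, adjusted p = 2.74e-06). The transcript 1110038B12Rik was at 7.39 and 7.57 against 5.05 to 6.63 (shift 1.61 ± 0.22, adjusted p = 2.13e-05), and Mad2l2, a subunit of the translesion polymerase zeta, was at 6.31 and 6.30 against 4.79 to 5.84 (shift 1.02 ± 0.16, adjusted p = 0.000128). On the lower side, Smarcc1, a core subunit of the BAF chromatin remodelling complex, was at 5.53 and 4.95 against 6.04 to 7.84 (shift -1.65 ± 0.24, adjusted p = 6.93e-05). Gmps, the enzyme that makes GMP, was at 6.51 and 6.09 against 6.84 to 9.01 (shift -1.60 ± 0.23, adjusted p = 6.10e-05). Ece2, an endothelin-converting enzyme, was at 4.57 and 4.13 against 4.80 to 6.08 (shift -1.04 ± 0.18, adjusted p = 0.000533). The call for Ece2 was lost without the female SJL/J pool and with log2(value + 16), where its shift was -0.68. The call for Mad2l2 was also lost with log2(value + 16), at a shift of 0.80. These 6 genes were named for their wide gaps. That the ranges of SJL/J and the other strains did not overlap within a gender follows from this choice. Over all 11209 genes, both SJL/J arrays lay above every other array of their gender in 63 (0.562%) and below in 41 (0.366%). For Smarcc1 the 2 further probe sets had shifts of -0.34 and -0.17, and for Gmps -0.45 and -0.25, so the size rests on 1 probe set each.

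Cpne8, which encodes a calcium-dependent membrane-binding protein of the copine family, had the largest fall. Its leading probe set read 3.21 and 3.26 in SJL/J, against 3.00 to 9.78 with a median of 9.06 in the other males and 8.95 in the other females. The shift was -4.33 ± 0.13 (adjusted p = 8.89e-19). The level was shared by AKR/J, BALB/CByJ, BUB/BnJ, DBA/2J, MRL/MpJ and NZW/LacJ, and against the spread between strains the adjusted p was 0.537. The other probe sets of Cpne8 did not follow as one. One had a shift of -1.46 and the other of 0.995, which has the opposite sign. Pdxdc1, a pyridoxal-dependent decarboxylase domain protein, showed such a split too, with a shift of 1.42 in its leading probe set and -1.57 to 0.29 in 3 others. Whether strain variants under these probes are involved was not tested.

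Trim12c belongs to a family of TRIM proteins that act in antiviral defence. It was at 3.27 and 2.81 in SJL/J against medians of 5.80 and 6.10 (shift -2.68 ± 0.21, adjusted p = 1.59e-09), and NOD/LtJ, NZO/HILtJ and SWR/J were alike. Zic1, a zinc finger transcription factor of the dorsal neural tube and meninges, was at 4.56 and 5.27 against 5.36 to 7.45 in the other males and 5.85 to 8.18 in the other females. Its shift was -1.89 ± 0.18 (adjusted p = 3.92e-08), and 0.0118 was the adjusted p against the spread between strains. The second probe set of Zic1 had a shift of -0.998 (adjusted p = 0.191). Btg2, an antiproliferative early response gene, was at 4.24 and 4.03 against a median of 6.02 (shift -1.70 ± 0.26, adjusted p = 0.000128). None of the other 14 tested immediate early genes passed.

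Several called falls had a larger shift in the female than in the male SJL/J pool, although the difference between the pools did not pass for any of the 4 given here (limma, adjusted p = 0.188 for Luc7l2 and 0.896 for Crim1, and higher for Rbfox2 and Anp32a). Luc7l2, a splicing factor of the U1 snRNP, was at 7.95 in the male and 5.19 in the female, against medians of 8.80 and 8.85 in the other males and females, with shifts of -0.88 and -3.49. Crim1, a transmembrane regulator of bone morphogenetic proteins, had shifts of -0.88 and -2.73, Rbfox2, a splicing factor of neurons and muscle, -1.10 and -2.84, and Anp32a, a nuclear phosphoprotein, -2.05 and -2.96. Each of these 4 calls was lost without the female pool, and the other probe sets of the genes had shifts between -0.48 and 0.12. Among all 32 called falls with a further probe set, 8 were followed by one in both arrays. The female pool is the one that resembled 129S1/Sv1mJ and c57BL/6J. In both 129S1/Sv1mJ and c57BL/6J, Rbfox2 and Anp32a were also at SJL/J-like levels.

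Genes of antigen presentation were also among those called. Major histocompatibility complex class II molecules are made of an alpha and a beta chain, travel with the invariant chain Cd74 and are loaded with peptide by H2-DM. H2-Eb1, the E beta chain, was at 7.62 and 8.43 in SJL/J, against 2.76 to 7.27 (median 6.28) in the other males and 3.22 to 8.26 (median 6.51) in the other females. It exceeded every other pool of its gender by at least 0.17, with a shift of 1.93 ± 0.24 (adjusted p = 6.49e-06). The strains nearest to it were 129S1/Sv1mJ with 7.08 and 8.26, c57BL/6J with 7.27 and 7.74, NON/LtJ with 6.99 and 8.02 and BTBT T+tf/J with 6.88 and 7.54, and the gene was near the floor in FVB/NJ, BUB/BnJ and SWR/J, at 2.76 to 3.52. H2-DMa, the alpha chain of H2-DM, was at 5.65 and 5.77 against 4.36 to 5.47 in the other males and 3.85 to 5.32 in the other females (shift 1.09 ± 0.14, adjusted p = 1.59e-05). Its call was lost without the female SJL/J pool and with log2(value + 16), where the shift was 0.76. Against the spread between strains the adjusted p was 0.0118 for H2-DMa and 0.615 for H2-Eb1.

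Below are the promoters of H2-Eb1, which was called, and of H2-Aa, which was not, to show the element that class II promoters share. The windows run from 250 bases before to 50 bases after the gene start in RefSeq GRCm38.p6, at chr17:34305617-34305916 on the plus strand and chr17:34287774-34288073 on the minus strand, and they show the reference genome, not SJL/J. Capitals mark CTGATTGG, the letters of the Y box, which binds the factor NF-Y in class II promoters.
H2-Eb1: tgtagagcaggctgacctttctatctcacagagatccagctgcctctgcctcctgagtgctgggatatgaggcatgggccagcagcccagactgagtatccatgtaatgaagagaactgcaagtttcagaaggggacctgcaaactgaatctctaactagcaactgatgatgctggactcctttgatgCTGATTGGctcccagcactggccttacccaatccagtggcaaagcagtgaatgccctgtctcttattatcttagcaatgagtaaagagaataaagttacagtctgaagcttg
H2-Aa: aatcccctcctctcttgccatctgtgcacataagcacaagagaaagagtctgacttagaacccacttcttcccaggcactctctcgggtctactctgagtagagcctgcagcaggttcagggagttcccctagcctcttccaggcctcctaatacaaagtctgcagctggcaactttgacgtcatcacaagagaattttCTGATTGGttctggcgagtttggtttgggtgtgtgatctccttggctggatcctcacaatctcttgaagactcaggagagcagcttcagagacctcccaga
The capitals begin 62 bases before the start of H2-Eb1 and 51 bases before that of H2-Aa. These 8 letters, sought on both strands, were in 1346 of 32851 promoter windows (4.10%). Of the 8 class II genes with a window, 4 held them, H2-Eb2 and H2-Oa besides those shown, and H2-DMa did not. A match in the reference is a description and does not give the sequence of SJL/J.

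The other class II genes tested did not pass. H2-Aa, the A alpha chain, was at 7.32 and 7.79 against a median of 6.78 (shift 0.81, adjusted p = 0.218), and Cd74 was at 8.63 and 8.73 against a median of 7.97 (shift 0.77, adjusted p = 0.106). H2-Ab1, the A beta chain, had a shift of 0.61 (adjusted p = 0.131) and H2-DMb2 of 0.32 (adjusted p = 0.144). H2-Ea, the E alpha chain, whose gene is known to be inactive in the s haplotype that SJL/J carries, was at 5.01 and 5.75 against a range of 4.82 to 8.33 (shift -0.35, adjusted p = 0.591). Thus 2 of 7 tested members were called (28.6%, beside 0.972% of all genes), 6 of 7 were higher in both pools (85.7%, beside 35.2%), and the list median was 0.77, beside 0.04 over all genes. These counts take 1 probe set per gene. A second probe set of H2-Ea had a shift of -1.03 and was lower by at least 0.5 in both pools. The 2 further probe sets of H2-Aa had shifts of -0.06 and 0.47, and the 2 of H2-Ab1 had 0.26 and 0.86. H2-DMa, H2-Eb1 and Agpat1, the last of them called lower at -1.22, stand 6 and 5 tested genes apart in the RefSeq order.

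Macrophages are a main source of class II in tissues. Of 15 macrophage markers tested, 1 passed, Mrc1, the mannose receptor, which was lower with 6.56 and 5.75 in SJL/J against a median of 7.05 (shift -0.84 ± 0.22, adjusted p = 0.0281). The list median was -0.16, and the mean shift was 0.08 in the male and -0.34 in the female SJL/J pool, within the ranges of other males (-0.58 to 0.45) and females (-0.66 to 1.66). In a whole ganglion, fewer cells of a type and less RNA per cell cannot be told apart. Tlr1, a receptor for bacterial lipopeptides, was called higher, with 5.48 and 6.17 in SJL/J against medians of 3.00 and 3.33 (shift 1.84 ± 0.34, adjusted p = 0.00108), and 6 other strains were alike. Its call was lost without the female SJL/J pool, and against the spread between strains the adjusted p was 0.532. With log2(value + 16) its shift was 1.11. Ly86, which encodes MD-1, the partner of the receptor RP105, was at 12.20 in both pools, against a median of 11.05 in the other males and 11.50 in the other females (shift 1.44 ± 0.16, adjusted p = 5.48e-07), with 7 other strains alike. Of 16 tested interferon-stimulated genes 1 passed, Oasl2, an antiviral protein of the oligoadenylate synthetase family (shift 0.76, adjusted p = 0.0130), and of 7 tested class I genes 0 passed. Serping1, the inhibitor of complement C1, passed lower (shift -0.87, adjusted p = 0.00671).

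**Figure D3:**
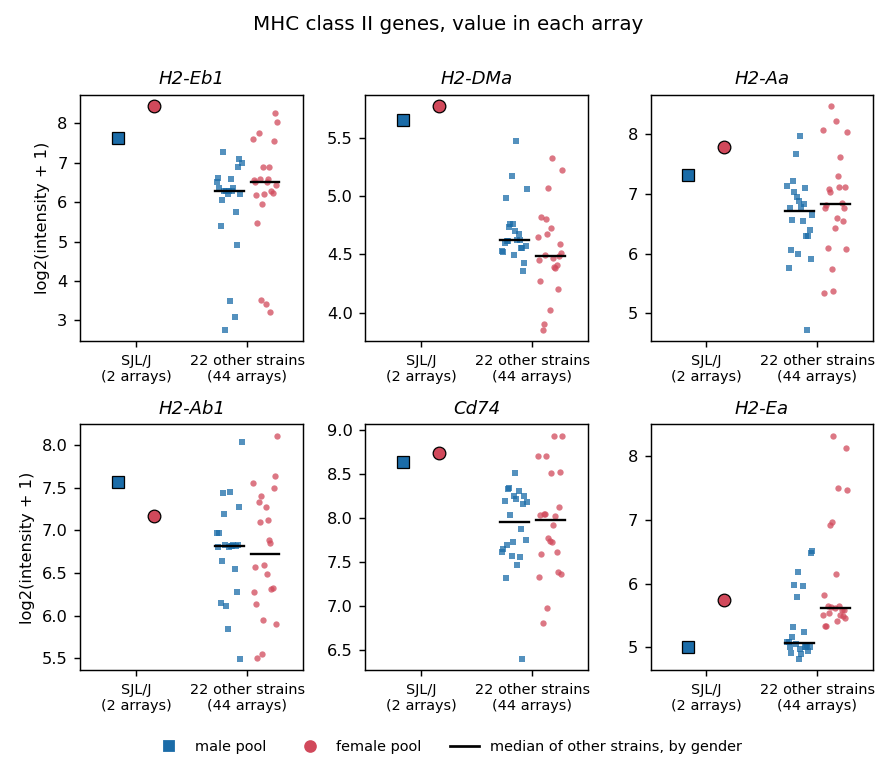
Log2(intensity + 1) of 6 MHC class II genes in each array, with the male (square) and female (circle) SJL/J pools on the left and the pools of the 22 other strains on the right; black bars are medians by gender. H2-Eb1 and H2-DMa are above every other pool of their gender in SJL/J, and H2-Aa, H2-Ab1 and Cd74 lie in the upper part of the range. The leading probe set of H2-Ea lies near the medians of the other strains, at 5.01 and 5.75 against 5.07 in males and 5.62 in females.

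Some genes of vessel walls were lower. Tagln, the smooth muscle protein transgelin, was at 5.42 and 5.90 in SJL/J, against 6.25 to 7.96 in the other males and 6.23 to 7.93 in the other females (shift -1.39 ± 0.24, adjusted p = 0.000659, and 0.0484 against the spread between strains). Its call was lost without the male pool. Cldn5, the tight junction protein of endothelium, was at 5.55 and 5.99 against a median of 6.69 (shift -0.85 ± 0.15, adjusted p = 0.000713). Rgs5, a pericyte marker, was at 8.56 and 8.72 against a median of 9.23 (shift -0.90 ± 0.16, adjusted p = 0.000658), and its 3 further probe sets moved the same way. These 3 were the members of 15 tested that passed, none higher, and 10 of 15 were lower in both pools (66.7%, beside 24.6% of all genes). The mean shift of the 15 was -0.417 in the male and -0.303 in the female SJL/J pool. Both lay within the ranges of other males (-0.423 to 0.676) and females (-0.458 to 0.413), the male near the lower end. Acta2, smooth muscle actin, had a shift of -0.84 (adjusted p = 0.0783), and Pecam1, which all endothelium carries, had -0.10 (adjusted p = 0.971).

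Among matrix genes, Ogn, a small leucine-rich proteoglycan, passed lower of 20 tested, with 9.95 and 9.89 in SJL/J against a median of 10.66 (shift -0.72 ± 0.20, adjusted p = 0.0410), and 13 were lower in both pools (65%, beside 24.6% of all genes), with a list median of -0.21. The mean shift of the list was -0.25 in the male and -0.34 in the female SJL/J pool. Both lay within the ranges of other males (-0.62 to 0.52) and females (-0.48 to 0.98). The next 5 genes, from called falls outside the lists, were picked after their values were seen. Igf2, a fetal growth factor, had a shift of -1.48 (adjusted p = 0.00691), Islr, a mesenchymal cell surface protein, -1.16 (adjusted p = 0.0150), Igfbp6, which binds insulin-like growth factors, -1.11 (adjusted p = 0.0476), Aldh1a1, which makes retinoic acid, -1.30 (adjusted p = 0.0351), and Slc47a1, an organic cation exporter, -1.60 (adjusted p = 0.0428). BUB/BnJ and KK/HIJ had SJL/J-like levels of Igf2 and Slc47a1. Car3, the carbonic anhydrase of fat and muscle, was at 6.33 and 5.61 against a median of 8.50 and a range of 5.46 to 10.49 (shift -2.48 ± 0.70, adjusted p = 0.0468). It lay just inside the threshold and the call was lost in 34 of 58 settings, among them 26 of the 44 that left out 1 array of another strain. Fabp4, the fatty acid-binding protein of adipocytes, had a shift of -1.88 (adjusted p = 0.116), and the mean shift of 6 adipocyte genes was -0.75 in the male and -0.90 in the female SJL/J pool, against -1.06 to 1.64 in other males and -0.83 to 1.15 in other females. The part of adjacent fat in these falls was not tested.

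Glial genes showed a few single differences. Glul, the glutamine synthetase of satellite glia, was at 9.84 and 9.49 in SJL/J, against 9.82 to 11.04 (median 10.72) in the other strains, and a further probe set moved the same way (shift -0.94 ± 0.14, adjusted p = 7.13e-05). No other satellite glia gene of 11 tested passed, and the list median was 0.02. Pmp2, the myelin fatty acid-binding protein, was at 6.49 and 6.72 against a median of 8.06 and a range of 5.67 to 9.65 (shift -1.22 ± 0.27, adjusted p = 0.00824), and 129S1/Sv1mJ, BTBT T+tf/J and NZW/LacJ were alike. Without either SJL/J pool the call for Pmp2 was lost. Ugt8a, the enzyme that makes myelin galactosylceramide, passed with a shift of -0.62 (adjusted p = 0.0250). The major myelin gene Mbp had -0.22 (adjusted p = 0.182), and of 16 myelin genes 10 were lower in both pools (62.5%, beside 24.6% of all genes), with a list median of -0.20. The mean shift of the myelin list was -0.37 in the male and -0.17 in the female SJL/J pool. Both lay within the ranges of other males (-0.46 to 0.32) and females (-0.61 to 0.35). Syt4, a synaptotagmin of dense-core vesicles, was the only one of 25 tested exocytosis genes to pass (shift -1.13 ± 0.21, adjusted p = 0.00162). Its second probe set had a shift of 0.19, the call was lost without the female SJL/J pool, and against the spread between strains the adjusted p was 0.301.

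**Figure D4:**
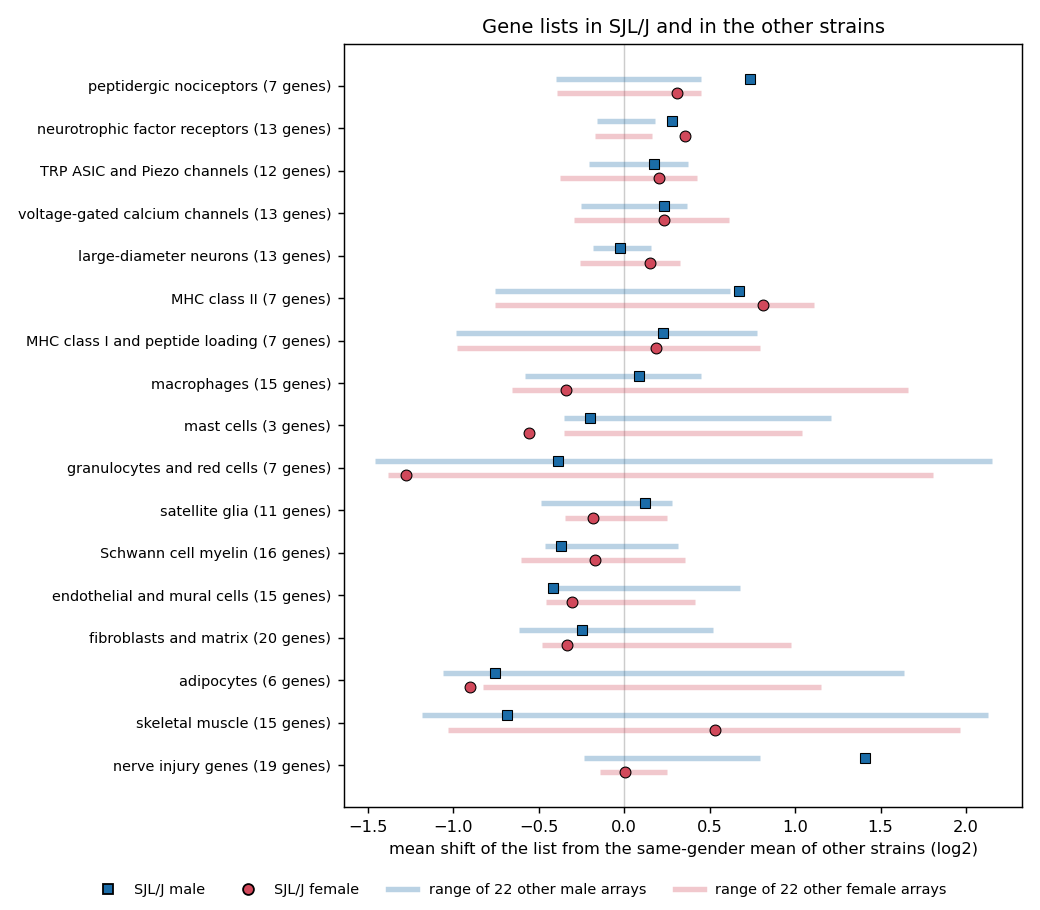
Mean shift of each gene list (log2, from the same-gender mean of the other strains) in the male (square) and female (circle) SJL/J pools, with bars for the range of the 22 other arrays of each gender. Neurotrophic factor receptors, whose means include the called genes Gfra3 and Il6st, lie above both ranges. Nerve injury, peptidergic and MHC class II genes lie above the range in the male pool only, and adipocyte and mast cell genes lie under the range in the female pool only. The peptidergic list includes Gal, which is also in the nerve injury list.

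Nerve injury genes separated the 2 SJL/J pools. They were already known from earlier results to be high in 1 pool, so their values are given as a description. The counts given above did not leave this list out. Gal is among the called genes, and Gal and Csf1 are among those that passed. The mean shift of 19 tested members was 1.41 in the male and 0.01 in the female SJL/J pool, against -0.24 to 0.80 in the other males and -0.14 to 0.25 in the other females. Sprr1a, a cornified envelope protein that injured neurons make, was at 8.07 in the male and 2.76 in the female SJL/J pool, against 2.72 to 6.63 with a median of 2.77 in the other strains. Atf3, the transcription factor of injured neurons, was at 7.94 and 3.94 against 3.57 to 6.39 with a median of 4.02. Nts, which encodes neurotensin, had shifts of 3.01 and -0.39, Npy, neuropeptide Y, 2.04 and -0.01, and Stmn4, a stathmin of growing axons, 1.26 and -0.22. A male pool of another strain, P/J, was also high, with Sprr1a at 6.63 in its male and 2.75 in its female pool, Atf3 at 6.39 and 4.24, Nts at 9.00 and 7.34, and Npy at 4.82 and 3.06. P/J had the highest male value outside SJL/J for 7 of the 19 genes, and its mean shift was 0.80 in the male and 0.06 in the female pool. Across all genes, 125 (1.12%) had a shift of at least 1 in a single SJL/J pool and under 0.5 in the other, and the male and the female shift differed at an adjusted p under 0.05 by limma in 5 (0.0446%), with 1 array on each side. These were Sprr1a, Atf3, Fst and Gpr151, which were higher in the male, and Mmp13, which was higher in the female. Mmp13 was at 6.14 in the female and 3.10 in the male. Sprr1a and Atf3 were already known to be high in 1 pool, so their place among the 5 is no independent result. Sprr1a and Npy exceeded the level of 4 needed for testing only in the male pools of SJL/J and P/J. Both genes were thus tested, and entered the mean of the 19, only through pools in which they were high. With 1 array on each side, the count is a description.

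Of the 19 injury genes, 6 were higher in both pools (31.6%, beside 35.2% of all genes), and 2 of them passed. Gal, the neuropeptide galanin, was called, with 10.26 in the male and 7.82 in the female SJL/J pool, against 5.99 to 9.47 (median 7.23) in the other males and 6.50 to 7.68 (median 7.24) in the other females. Both were above all other pools of their gender, but the shifts of 2.95 and 0.64 differ widely, and without the male pool the shift was 0.64 and the call was lost (all arrays: shift 1.80 ± 0.35, adjusted p = 0.00234). Csf1, the macrophage growth factor that injured sensory neurons release, was at 6.17 and 5.77 against 4.75 to 5.45, above every other array, with a shift of 0.81 ± 0.12 (adjusted p = 8.18e-05). The other probe set of Csf1 had a shift of 0.02, so the 2 probe sets disagree. Vgf, a neurosecretory precursor protein picked after its values were seen, was also called (9.40 and 8.71 against a median of 7.93, shift 1.14, adjusted p = 0.00128).

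A list of genes with known variants in SJL/J or in other inbred strains gave mixed values. Dysf, the muscle membrane repair gene with the SJL/J splice mutation, was at 7.67 and 7.61 against a median of 6.92 (shift 0.93 ± 0.24, adjusted p = 0.0266), so its transcript was not low. Glo1, the glyoxalase that some strains carry in extra copies, was at 11.04 and 11.15 against 10.72 to 12.87 (shift -0.40 ± 0.09, adjusted p = 0.00944), alike in 11 other strains. Tlr4, Nnt and Gpnmb, with known variants in other strains, had shifts of -0.29, -0.24 and 0.11 and did not pass. Pde6b, the retinal gene of the rd1 mutation, was at 2.88 and 2.85 and was not tested.

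SWR/J and FVB/NJ are the other Swiss-derived strains among those compared. Against the mean of these alone, 142 genes (1.27%) were called in SJL/J, 59 higher (0.526%) and 83 lower (0.740%). This mean rests on 4 arrays, among them the male SWR/J pool with raised Xist (6.73). The male and female SWR/J arrays correlated at 0.22 after the mean of each gender was removed. Of the 109 genes called against all strains, 63 were also called here with the same sign, which is 57.8% of the first list and 44.4% of the second, though both comparisons share the SJL/J, SWR/J and FVB/NJ arrays. For H2-Eb1 the shift was 4.73 (adjusted p = 1.06e-11), for Mrgpra3 -4.75 (adjusted p = 4.89e-16), for Cpne8 -6.02 (adjusted p = 1.92e-20) and for Gfra3 1.81 (adjusted p = 5.99e-09).

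An SJL/J-like level, with both arrays of a strain no nearer to the other strains than the midpoint of the SJL/J shift, was found in no other strain for 21 of the 109 called genes, in 1 to 5 strains for 71 and in 6 or more for 17. Cap1, an actin-binding protein at 10.70 and 10.54 in SJL/J, is an example of the last kind, with 13 other strains alike and a call that rests on low values elsewhere and was lost without the female SJL/J pool. The strain with the most shared genes was 129S1/Sv1mJ, with 30 (27.5%), 8 of them higher and 22 lower, followed by SWR/J with 25, BUB/BnJ with 24 and NZW/LacJ with 21, and FVB/NJ had 16. In the RefSeq order of 11181 placed genes, 24 of the 109 called genes lay in 11 runs within 10 tested genes of each other. How many runs 109 genes placed at random would give was not worked out, so the count is a description only. Some runs held a single sign, such as Slc35b2, Rsph9 and Polr1c, all lower at -1.50, -1.09 and -1.29, and Scn2b and Tagln, both lower. Others held both signs, such as Gm13306 at -2.11 and Pigo at 1.19.

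**Figure D5:**
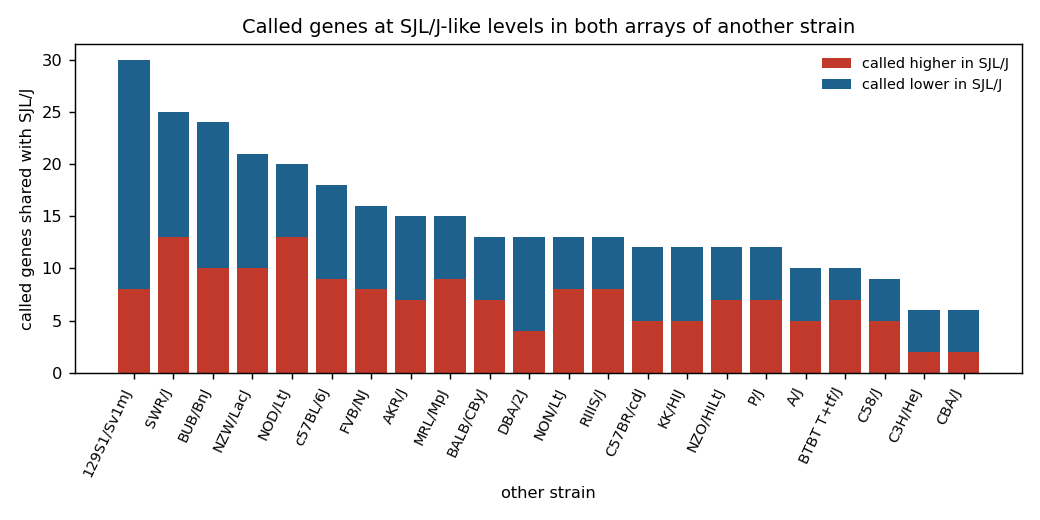
Number of the 109 called genes (vertical axis) for which both arrays of another strain (horizontal axis) had an SJL/J-like level, with genes called higher in SJL/J in red and genes called lower in blue. 129S1/Sv1mJ leads with 30 genes, 22 of them lower, and SWR/J follows with 25.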

How the data were processed

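Per the submitters' processing notes, the authors made the deposited intensities with GCRMA in R 2.6.2, which corrects background and normalizes probe signals. They are linear values, 1 per probe set and array, and the number of arrays, not a depth, limits precision. No genome build or probe mapping is given in the sources used here. The values were put on a log2 scale after adding 1. Of 45101 probe sets, 64 controls were left out, and 22130 with a log2 value above 4 in at least 2 of the 46 arrays were tested. Probe sets with exactly 1 symbol numbered 34945, with several 932 and with none 9160, and the one with the highest mean stood for a gene, which left 11209 tested of 18193.

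One linear model held 23 strain means and an additive gender term, with moderated variances from limma (version 3.58.1, run under R 4.3.3), and the Benjamini-Hochberg adjustment ran over all tested probe sets. SWR/J and FVB/NJ gave a second contrast. A fit of 2 SJL/J arrays against 44 others, with gender, let the spread between strains enter the error. It had no term for strain and took the 2 pools of a strain as independent, so its p-values tend to be too small. On simulated data with known shifts the call rule was tested first. Named genes were the 15 largest rises and falls, up to 3 called members of each list, a list of genes with known strain variants, the genes of the series title, the 10 widest gaps and 5 nerve injury genes, and others are marked as picked after their values were seen. The members and gene lists were chosen with earlier results of these data known. Promoters are from RefSeq GRCm38.p6, of which H2-Eb1 and H2-Aa are shown.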

Additional observations from a re-analysis of the deposited data

Results flagged for a closer look

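The male and the female SJL/J pool differed widely in Sprr1a and Atf3. For Sprr1a the male minus the female shift was 5.06, with shifts of 5.01 in the male and -0.05 in the female. For Atf3 it was 3.53, with shifts of 3.47 and -0.06. Both genes were already known to be high in 1 pool and each value rests on 1 array per gender. The values are therefore a description, as is the place of both genes in the count of differing genes given above. The male pool of P/J was also high in both genes.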

How the results depend on the processing

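With 2 SJL/J arrays, every call rests on 1 pool per gender. Of the 42 named genes that were called, 7 kept the call in every setting and 15 more lost it only in the fit against the spread between strains, which 28 lost in all. No named gene that was called changed sign, whereas 5 that were not called (Atf3, Nts, Stmn4, Chrna6 and P2rx2) did so when 1 SJL/J pool was left out. Sprr1a and Npy could not be tested without the male SJL/J pool, and their female shifts were -0.05 and -0.01. With log2(value + 16), 65 genes were called, 19 of them higher, and 84 against SWR/J and FVB/NJ. Against the spread between strains the counts were 21 in all, 8 higher and 13 lower. Leaving out 1 array at a time gave 79 to 140 genes called, 38 to 56 higher, 38 to 84 lower, and 107 to 169 against SWR/J and FVB/NJ. The lowest counts in all and lower came without the female SJL/J pool (79 and 38, with 48 of the 109 genes shared) and the highest without the male pool (140 and 84, with 78 shared), while leaving out an array of another strain gave 104 to 114. Other filters, quantile normalization, no gender term, another choice of probe set or of strains kept the counts within 1.5 times. No paired analysis was possible because the labels carry no replicate numbers, and gender was already a term of the fit.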

Other observations

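Heat shock genes, which were not described above, had 8 of 13 tested members higher in both SJL/J pools (61.5%, beside 35.2% of all genes), and none passed. Hspb1, a small chaperone of sensory neurons, had the lowest adjusted p of them, with 11.47 and 11.10 in SJL/J against a median of 10.78 (shift 0.51, adjusted p = 0.0560). Genes of skeletal muscle, a tissue next to the ganglion, differed between the pools, with a mean shift of -0.69 in the male and 0.53 in the female over 15 genes, against -1.18 to 2.13 in the other males and -1.03 to 1.97 in the other females. Stard4, a cholesterol carrier protein, was the one gene of 16 tested in sterol metabolism to pass (shift -0.63, adjusted p = 0.00360). None of 25 genes of the mitochondrial respiratory chain and none of 17 Hox genes passed.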
